A study of Homo sapiens with 48 samples.

Results

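The genes described here encode the adaptors, ubiquitin ligases and kinases that carry a signal from TNF-family receptors to NF-κB. The 10 members are TRAF1, TRAF2, TRAF3, TRAF4, BIRC2, BIRC3, MAP3K14, IKBKE, CHUK and IKBKB, out of 20007 protein-coding genes in the annotation. They were taken as a named list, and every peak that overlapped the gene body or the 50 kb on either side was assigned to them. Binding was mapped by ChIP-seq in L3.6pl, a human pancreatic ductal adenocarcinoma cell line. The 48 samples form 16 groups of 3, and each group is represented by 1 list of peaks. RELA, RELB and the active chromatin mark H3K27ac were each profiled in vehicle (PBS), after TNFα for 30 min or 6 h, and after TWEAK for 30 min or 6 h, and the AP-1 subunit FOSL1 was profiled in vehicle. All groups are the same cell line, with no genetic change given in the labels, and the duration of the vehicle treatment was not given. Of the epithelial marker genes, 6 of 6 carried H3K27ac within 1 kb of a start in vehicle, compared with 2 of 4 leukocyte markers (CD3E and CD68) and 2 of 4 fibroblast and endothelial markers (COL1A1 and PECAM1).

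At TNF-family receptors, TRAF2 recruits the cellular inhibitor of apoptosis proteins cIAP1 and cIAP2, encoded by BIRC2 and BIRC3, which attach ubiquitin chains to signalling proteins. In the canonical pathway this activates the IκB kinase complex, whose catalytic subunits IKKα and IKKβ are encoded by CHUK and IKBKB, and RELA enters the nucleus. In the noncanonical pathway, TRAF3 holds the kinase NIK, encoded by MAP3K14, next to the cIAPs, which mark NIK for degradation. Release of NIK lets IKKα drive processing of p100, and RELB enters the nucleus.

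The sites that carry most of the result are shown first, as the forward strand of hg38 around the RELA summit after 30 min of TNFα. Capitals mark matches to the κB consensus, which is the DNA element recognised by NF-κB dimers, or to the AP-1 element TGANTCA, on either strand. These sites were chosen because RELA after 30 min of TNFα and RELB after 6 h of TWEAK were both called there. Bases in an annotated UTR were left out, which shortens the TRAF3 sequence and removes the second TRAF2 site described further on. The TRAF3 sequence therefore ends before the RELA summit.
BIRC3 promoter (chr11:102317262-102317381): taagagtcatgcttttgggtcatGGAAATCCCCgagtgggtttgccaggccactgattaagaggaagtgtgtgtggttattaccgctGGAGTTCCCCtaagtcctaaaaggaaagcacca
BIRC2 upstream site (chr11:102346038-102346162): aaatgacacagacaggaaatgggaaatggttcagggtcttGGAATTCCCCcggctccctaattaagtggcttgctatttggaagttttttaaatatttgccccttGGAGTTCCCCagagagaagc
TRAF2 intronic site (chr9:136902504-136902623): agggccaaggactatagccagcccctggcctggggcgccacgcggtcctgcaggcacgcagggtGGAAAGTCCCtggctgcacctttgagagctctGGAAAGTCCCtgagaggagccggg
TRAF3 promoter (chr14:102777406-102777448): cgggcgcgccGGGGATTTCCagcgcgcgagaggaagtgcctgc
TRAF4 upstream site (chr17:28728222-28728341): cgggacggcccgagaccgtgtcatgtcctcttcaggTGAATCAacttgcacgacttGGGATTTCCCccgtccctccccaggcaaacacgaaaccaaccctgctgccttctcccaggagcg
IKBKE promoter (chr1:206469586-206469705): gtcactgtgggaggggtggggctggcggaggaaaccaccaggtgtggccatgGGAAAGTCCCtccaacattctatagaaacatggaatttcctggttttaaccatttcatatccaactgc
IKBKE intronic site (chr1:206481307-206481426): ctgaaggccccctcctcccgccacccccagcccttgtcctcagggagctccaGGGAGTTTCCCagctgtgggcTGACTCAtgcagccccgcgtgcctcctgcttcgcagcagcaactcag
BIRC3 distal site (chr11:102306426-102306545): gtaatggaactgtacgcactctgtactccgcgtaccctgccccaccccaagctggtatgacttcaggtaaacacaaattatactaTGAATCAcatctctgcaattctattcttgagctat

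The BIRC3 promoter and the BIRC2 upstream site each held 2 separate κB matches, and so did the TRAF2 intronic site, where both read GGGACTTTCC on the reverse strand. The TRAF3 promoter also held 2, of which 1 is shown and the other lies in the UTR bases left out. In the IKBKE intronic site the capitals of the κB element are 2 overlapping matches on opposite strands, followed by an AP-1 match. The BIRC3 distal site held an AP-1 match and no κB match within the 200 bp searched.

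Peaks of RELA or RELB were called in the windows of 8 of the 10 genes, and in 50.7% of all protein-coding genes under the same rule. MAP3K14 and CHUK had no peak in any of the 10 RELA and RELB lists. With 100 kb on either side, RELA peaks after 30 min of TNFα came into reach of MAP3K14, the highest at 10.6, and CHUK still had none in any of the 10 lists. Peak heights are given as fold enrichment over input, as the authors' peak caller wrote it. Replicates were pooled before peak calling, so no test between treatments was possible. A peak that is listed after one treatment and not after another therefore describes the lists and is not a tested difference. Whether the RELA list of 30 min of TNFα merges all 3 replicates could not be told from its peak names, and the depth of the libraries is unknown. Tandem repeats held between 26.3% (RELA, 30 min of TNFα) and 94.7% (RELB, 30 min of TWEAK) of the RELA and RELB peaks by list. Of the sites described here, 1 lay in such repeats. All these sites include a RELA peak of 30 min of TNFα, and no repeat share for peaks near genes is available.

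In vehicle, RELA was called at 5 of the 10 genes (TRAF2, TRAF3, BIRC2, BIRC3 and IKBKE), against 5.05% of all protein-coding genes. After 30 min of TNFα it was called at 8 (background 48.1%), after 6 h of TNFα at 6 (26.8%), after 30 min of TWEAK at 6 (7.58%) and after 6 h of TWEAK at 4 (5.11%). RELB was called at 3 genes in vehicle (background 3.06%), at 2 after 30 min of TNFα (1.58%) and at 4 after 6 h of TNFα (3.87%). After 30 min of TWEAK it was called at 0 (1.39%), and after 6 h of TWEAK at 6 (13.6%). BIRC2 and BIRC3 lie next to each other and share sites, so they do not count as independent genes. The windows of the 10 genes had a median length of 136379 bp, against 127466 bp over all genes.

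**Figure D1:**
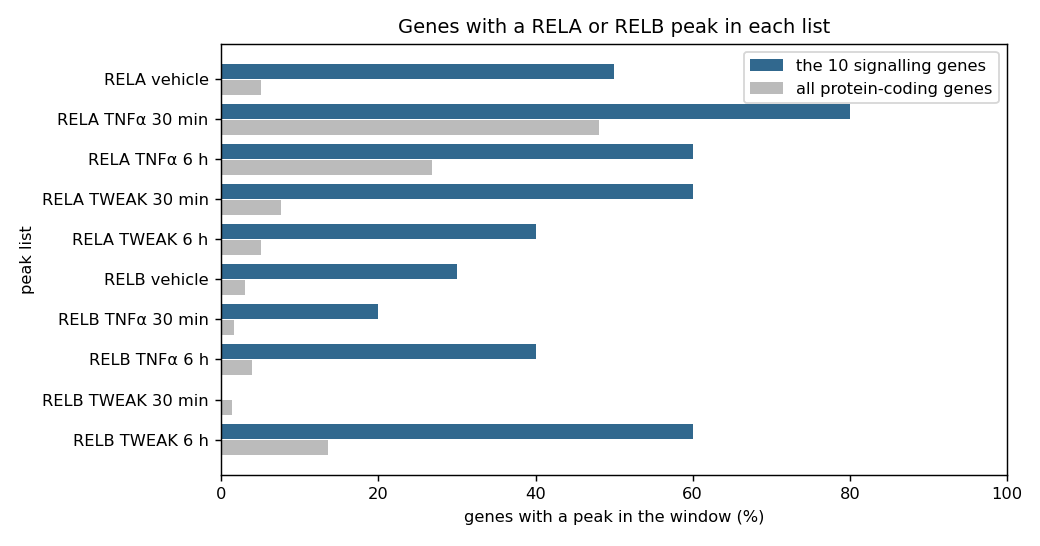
Share of genes with at least 1 peak in the window (x axis, %) in each RELA and RELB list (y axis), for the 10 signalling genes (blue) and all 20007 protein-coding genes (grey). The blue bar was the longer one in each list but RELB after 30 min of TWEAK, where 0 of 10 genes had a peak.

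Peaks that did not overlap a vehicle peak of the same antibody were found for RELA at 8 genes after 30 min of TNFα (background 46.9%) and at 5 after 6 h (24.5%). After TWEAK such RELA peaks lay at 2 genes at 30 min, TRAF2 and TRAF4 (4.23%), and at 0 at 6 h (2.16%). For RELB they lay at 6 genes after 6 h of TWEAK (11.8%) and at 3 after 6 h of TNFα (2.15%). At 30 min RELB had 0 such genes after TNFα (0.455%) and 0 after TWEAK (0.4%). BIRC2 and BIRC3 enter both RELB counts at 6 h through the same weak site, 10998 bp upstream of BIRC3. RELB there was 3.65 after TNFα and 3.88 after TWEAK. The BIRC3 promoter and the BIRC2 upstream site already had RELB peaks in vehicle. At 6 genes a RELA peak of 30 min of TNFα was also a RELB peak of 6 h of TWEAK, compared with 11.6% of all genes. The RELB count of 6 genes after 6 h of TWEAK was 3 with windows of 10 kb, and the RELA count of 8 after 30 min of TNFα was 5 with a minimum fold enrichment of 5. The share of all genes under these changed rules is not available here, so the changed counts have no background.

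**Figure D2:**
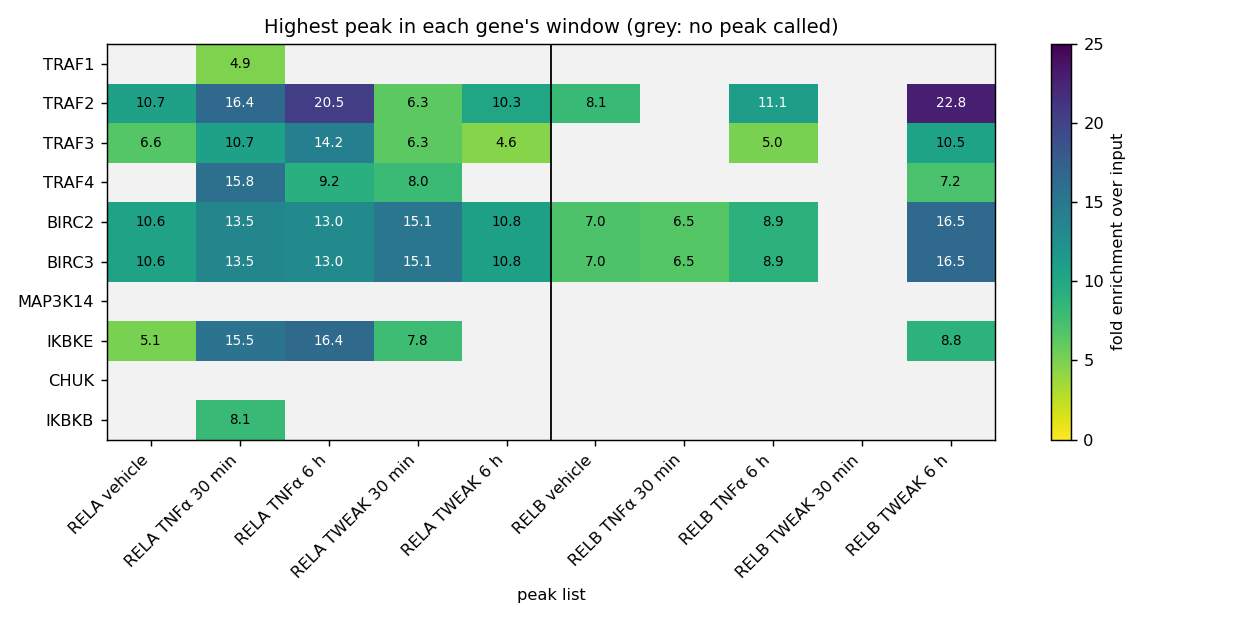
Highest fold enrichment over input in the window of each gene (rows) in each RELA and RELB list (columns); grey fields hold no peak. TRAF2 had the highest value, 22.8 for RELB after 6 h of TWEAK, and the rows of MAP3K14 and CHUK are empty.

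Merging overlapping RELA and RELB peaks gave 27 separate sites, and 17 with windows of 10 kb or with a minimum fold enrichment of 5. All 27 included a RELA peak of 30 min of TNFα, as did 88.9% of the 8097 sites near any protein-coding gene. Of the 27, 16 were called in that list alone (background 55.2%) and 9 were also called for RELB after 6 h of TWEAK (17.6%). Among the 9, the sites at BIRC3, BIRC2, TRAF2 and TRAF3 (4 in all) were called in 7 or more of the 10 lists, against 2.78% of all sites. The nearest annotated protein-coding start belonged to the member itself at 21 sites, and at 11 sites the summit lay within 1 kb of a start of the member. No share of all sites is available for these counts, and the members have between 3 (TRAF1) and 26 (IKBKB) annotated starts.

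The 27 RELA peaks of 30 min of TNFα were compared with the 7208 peaks of that list near any protein-coding gene. In vehicle 5 were already called (18.5%, exact 95% interval 6.30% to 38.1%; background 5.2%), and 11 were called after 6 h of TNFα (40.7%, 22.4% to 61.2%; background 35.9%). After 30 min of TWEAK 6 were called for RELA (22.2%, 8.62% to 42.3%; background 8.63%). For RELB after 6 h of TWEAK the number was 9 (33.3%, 16.5% to 54.0%; background 16.1%). The intervals cover counting of peaks and not the spread between replicates. They treat the 27 peaks as independent, although many share a window, such as the 7 in the BIRC3 window, and so may be too narrow. The lower bounds for vehicle, for RELA after 30 min of TWEAK and for RELB after 6 h of TWEAK lie close to their backgrounds. Whether any of these shares differs from its background was not tested.

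**Figure D3:**
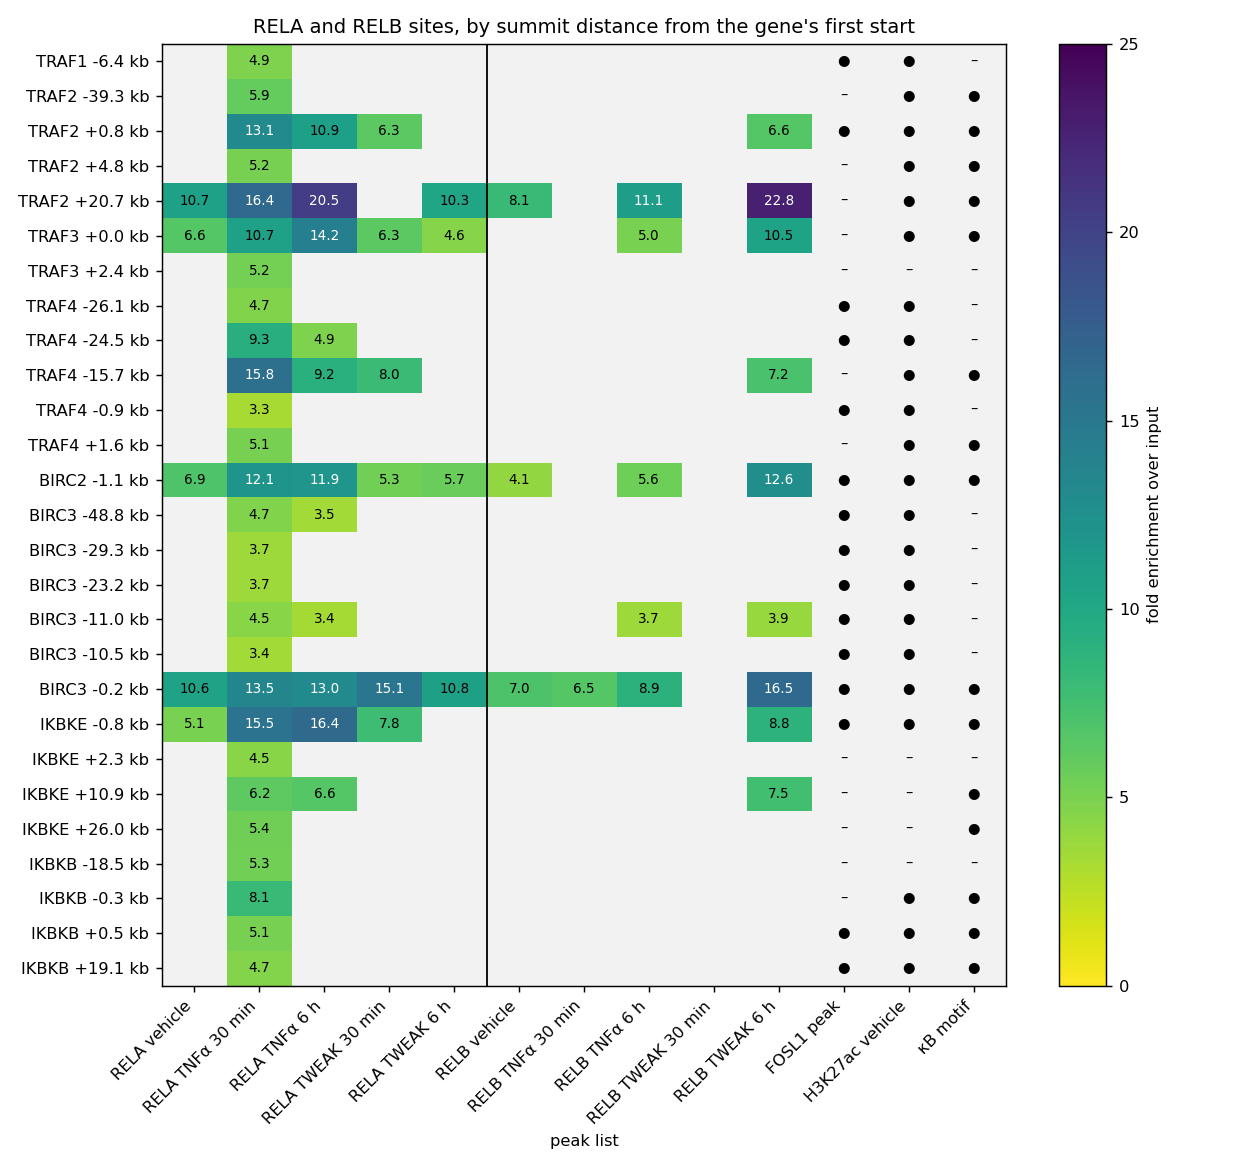
Fold enrichment over input at the 27 sites (rows, named by gene and summit distance from its first annotated start) in the 10 RELA and RELB lists (columns), with dots for a FOSL1 peak, H3K27ac in vehicle and a κB match. The column of RELA after 30 min of TNFα is filled in each row, and 16 rows hold no other value.

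The cIAP genes had the sites called in most lists. At the BIRC3 promoter, chr11:102317054-102317749, the RELA summit lay 162 bp upstream of the first start. Its RELA fold enrichment was 10.6 in vehicle, 13.5 and 13.0 after 30 min and 6 h of TNFα, and 15.1 and 10.8 after 30 min and 6 h of TWEAK. RELB was listed at 6.97 in vehicle, 6.55 and 8.90 after 30 min and 6 h of TNFα, and 16.5 after 6 h of TWEAK. It was thus called in 9 of 10 lists and was missing only for RELB after 30 min of TWEAK. In the RELB list of 6 h of TWEAK the value was at or above that of 97.6% of peaks, compared with 81.7% in the vehicle list. Tandem repeats made up 59.6% of the former list and 92.9% of the latter, so the ranks are not directly comparable. FOSL1 was called there as well, at 7.85.

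The BIRC2 site, chr11:102345906-102346297, lay 1113 bp upstream of the first BIRC2 start and was called in 8 lists. RELA was 6.90 in vehicle, 12.1 and 11.9 after 30 min and 6 h of TNFα, and 5.31 and 5.70 after 30 min and 6 h of TWEAK. RELB was 4.06 in vehicle, 5.56 after 6 h of TNFα and 12.6 after 6 h of TWEAK. Both RELB values after 6 h were above the vehicle value. The BIRC3 promoter also lies in the BIRC2 window and gave its highest value in each list with a peak, except where the window was 10 kb. The BIRC3 distal site, 10998 bp upstream, was weaker and had RELA at 4.49 and 3.38 after 30 min and 6 h of TNFα. RELB there was 3.65 after 6 h of TNFα and 3.88 after 6 h of TWEAK, with FOSL1 at 8.64. The other 4 sites upstream of BIRC3 were RELA peaks after TNFα between 3.44 and 4.73, and all 4 overlapped FOSL1.

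TRAF2, the adaptor that brings the cIAPs to the receptor, had the strongest site of the group. It lies in intron 4 of the canonical transcript, chr9:136902436-136902708, 20652 bp downstream of the first start and 620 bp from the nearest annotated TRAF2 start. RELA was 10.7 in vehicle, 16.4 and 20.5 after 30 min and 6 h of TNFα, and 10.3 after 6 h of TWEAK. RELB was 8.06 in vehicle, 11.1 after 6 h of TNFα and 22.8 after 6 h of TWEAK, the latter at or above 99.4% of the peaks in its list. No peak was called there for RELA after 30 min of TWEAK or for RELB at 30 min of either ligand, and no FOSL1 peak overlapped. A second TRAF2 site, chr9:136882509-136882814, lies in the gene 777 bp downstream of its first start, before the start of the canonical transcript, and was not called in vehicle. RELA there was 13.1 and 10.9 after 30 min and 6 h of TNFα and 6.33 after 30 min of TWEAK, RELB was 6.62 after 6 h of TWEAK, and FOSL1 was 10.5. Its 200 bp held 1 κB and 1 AP-1 match. The other 2 TRAF2 sites were RELA peaks of 30 min of TNFα alone, at 5.16 in intron 1, 192 bp from an annotated start, and at 5.92 far upstream, 173 bp from the start of AJM1.

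TRAF3, the adaptor that keeps NIK low, had its strong site at the promoter, chr14:102777333-102777637, with the RELA summit in the UTR part of exon 1. RELA was 6.59 in vehicle, 10.7 and 14.2 after 30 min and 6 h of TNFα, and 6.26 and 4.57 after 30 min and 6 h of TWEAK. RELB was 5.04 after 6 h of TNFα and 10.5 after 6 h of TWEAK and was not called in vehicle. The 1000 bp around this summit matched themselves at 0.416, just above the limit of 0.4 used for tandem repeats, which no other site reached. Without tandem repeats, RELB after 6 h of TWEAK was called at 5 of the 10 genes and RELA in vehicle at 4, with no matching share of all genes available. The second TRAF3 site, in intron 1, was a RELA peak of 5.23 after 30 min of TNFα.

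TRAF4, another TRAF family adaptor, had its strongest peak far from its own start. At chr17:28728077-28728446, 15729 bp upstream, RELA was 15.8 and 9.16 after 30 min and 6 h of TNFα and 7.96 after 30 min of TWEAK, and RELB was 7.17 after 6 h of TWEAK. This site lies inside NEK8, and the nearest protein-coding start, at 347 bp, is that of TLCD1. Sites at 24452 bp and 26096 bp upstream were likewise nearer to other starts, RPL23A at 426 bp and RAB34 at 47 bp. With 10 kb on either side the highest RELA value of TRAF4 was 5.15. Close to TRAF4 itself, RELA after 30 min of TNFα was 3.29 at 874 bp upstream and 5.15 in intron 1.

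TRAF1, an adaptor that pairs with TRAF2, had a single RELA peak of 4.86 after 30 min of TNFα, 6383 bp upstream. That value was at or above 26.3% of the peaks in its list.

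Of the kinases, IKBKE, which encodes the IKK-related kinase IKKε, carried the most lists. At its promoter site, chr1:206469485-206469831, 830 bp upstream, RELA was 5.07 in vehicle, 15.5 and 16.4 after 30 min and 6 h of TNFα, and 7.79 after 30 min of TWEAK. RELB was 8.80 after 6 h of TWEAK and was called in no other RELB list. In intron 13, chr1:206481279-206481446, RELA was 6.16 and 6.61 after 30 min and 6 h of TNFα and RELB was 7.53 after 6 h of TWEAK, with neither FOSL1 nor H3K27ac in any of the lists. The other 2 IKBKE sites were RELA peaks of 30 min of TNFα alone, at 4.48 in intron 2, 103 bp from an annotated start, and at 5.39 in exon 22, in the UTR. IKBKB had 4 sites, all of them RELA peaks of 30 min of TNFα alone, the highest being 8.10 at 304 bp upstream of the first start and the others between 4.68 and 5.35.

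MAP3K14 and CHUK, the kinases at the centre of the noncanonical pathway, carried other marks. FOSL1 was called 10 times in the MAP3K14 window, with a highest fold enrichment of 10.6, and 4 times in the CHUK window, with a highest value of 5.84. In vehicle H3K27ac was called 12 times at MAP3K14 and 4 times at CHUK. Within 1 kb of the first start, H3K27ac across the 5 lists ranged from 2.85 to 4.07 at MAP3K14 and from 4.04 to 4.86 at CHUK.

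**Figure D4:**
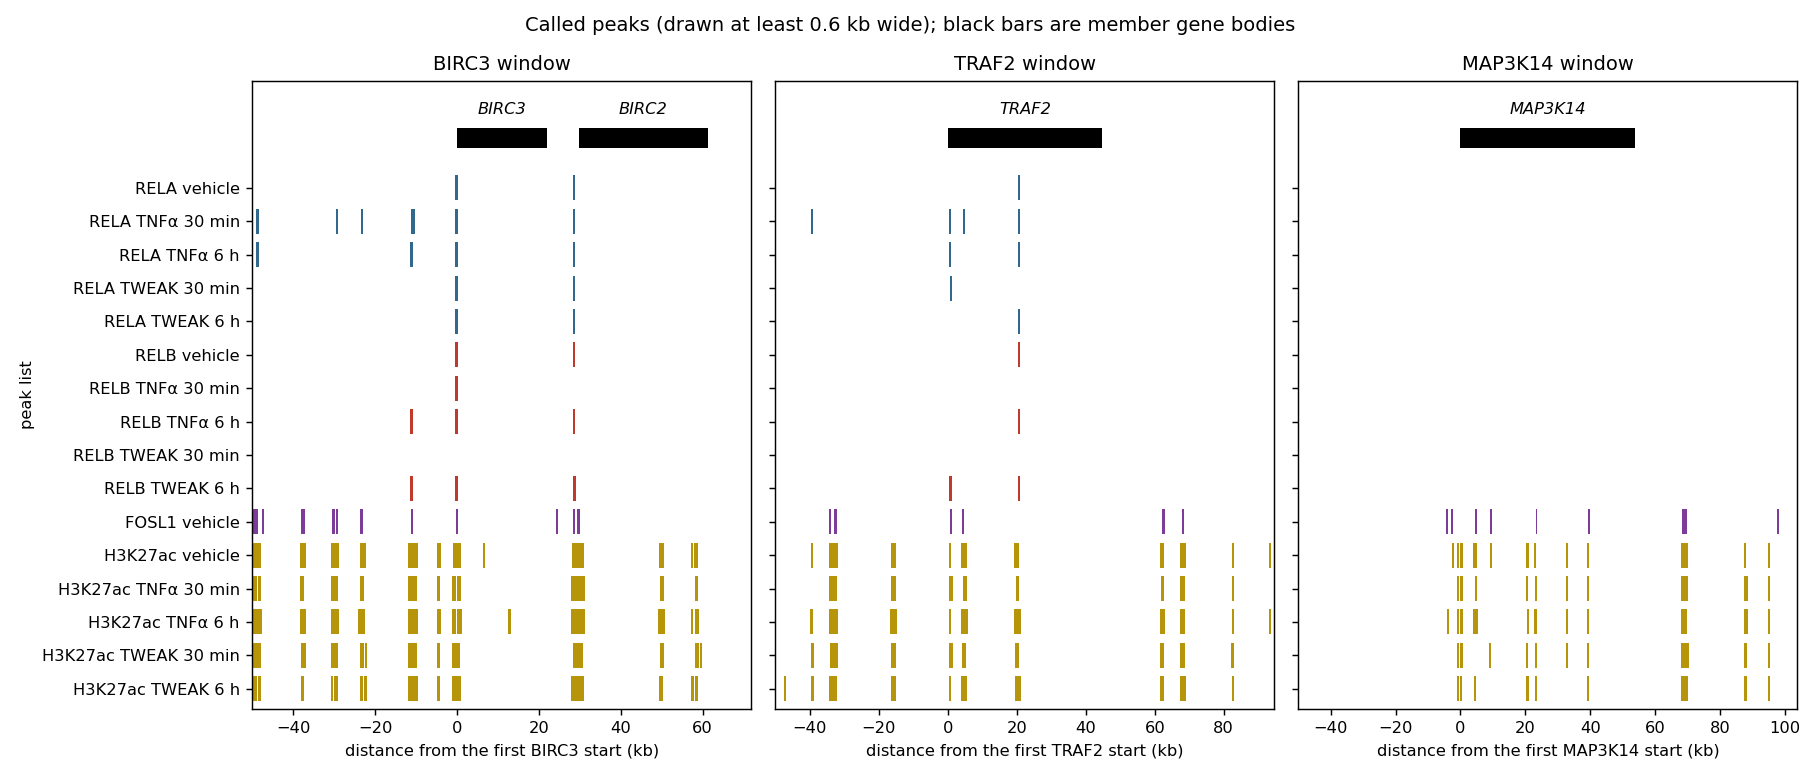
Called peaks of the 16 lists (rows) in the windows of BIRC3, TRAF2 and MAP3K14, by distance from the first annotated start in the direction of transcription (x axis, kb); black bars are gene bodies. RELA and RELB peaks stack at the BIRC3 promoter and upstream of BIRC2, and none lies in the MAP3K14 window, which holds 10 FOSL1 peaks.

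All 10 genes had FOSL1 in their windows (background 90.6%) and H3K27ac in each of the 5 lists. The background for H3K27ac was 91.5% in vehicle, 90.2% and 91.5% after 30 min and 6 h of TNFα, and 90.6% and 91.1% after 30 min and 6 h of TWEAK, so these counts do not set the genes apart. Within 1 kb of the first start all 10 carried H3K27ac in vehicle, against 59.4% of all genes.

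Of the 27 RELA peaks of 30 min of TNFα, 15 overlapped FOSL1 (55.6%, exact 95% interval 35.3% to 74.5%; background 49.9%). With a minimum fold enrichment of 5 for both antibodies it was 3 of 17 (17.6%). This limit also removes FOSL1 peaks, whose median fold enrichment was 4.99, and no background under it is available. H3K27ac lay within 500 bp of 22 summits in vehicle (81.5%, 61.9% to 93.7%; background 64.9%), of 23 after 30 min of TNFα (85.2%, 66.3% to 95.8%; background 76.2%) and of 23 after 6 h of TNFα (background 72.2%). Where the broad peak had to cover the summit itself, the share after 30 min of TNFα was 51.9%. No background under that rule is available. After TWEAK the numbers were 22 at 30 min (background 65.4%) and 24 at 6 h (88.9%, 70.8% to 97.6%; background 65.3%). The counts in the 5 H3K27ac lists lay between 22 and 24, and whether any share differs from its background was not tested. These intervals too treat peaks of the same window as independent. Against vehicle, 2 sites gained and 1 lost an H3K27ac peak after 30 min of TNFα, and 2 gained and 0 lost one after 6 h of TWEAK. After 6 h of TNFα 1 gained and 0 lost one, and after 30 min of TWEAK 0 gained and 0 lost one. The TRAF3 intron 1 site gained it after 30 min of TNFα and 6 h of TWEAK. The IKBKB site 18465 bp upstream gained it in these lists and after 6 h of TNFα. The site lost was the TRAF2 site 39261 bp upstream, next to AJM1. The share of all sites that gained or lost such a peak is not available here.

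The length of window under H3K27ac peaks was below vehicle at 9 of the 10 genes after 30 min of TNFα (all but TRAF3) and at 9 after 6 h of TWEAK (all but IKBKE). It was below vehicle at 7 genes after 30 min of TWEAK and at 5 after 6 h of TNFα. The share of all protein-coding genes below vehicle is not available here, so these counts cannot be set against a background. At BIRC3 it was 17.8 kb in vehicle, 15.4 and 19.4 kb after 30 min and 6 h of TNFα, and 16.1 and 15.3 kb after 30 min and 6 h of TWEAK. At TRAF3 it was 3.56 kb in vehicle and between 2.36 and 4.84 kb after treatment. At IKBKE it was 3.55 kb in vehicle and 5.02 kb after 6 h of TWEAK. The H3K27ac lists themselves held 59894 peaks in vehicle, 53895 and 61194 after 30 min and 6 h of TNFα, and 55821 and 58021 after 30 min and 6 h of TWEAK. The median peak length was 781 bp in vehicle and between 627 and 743 bp after treatment, and the part of this in the covered lengths was not tested.

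**Figure D5:**
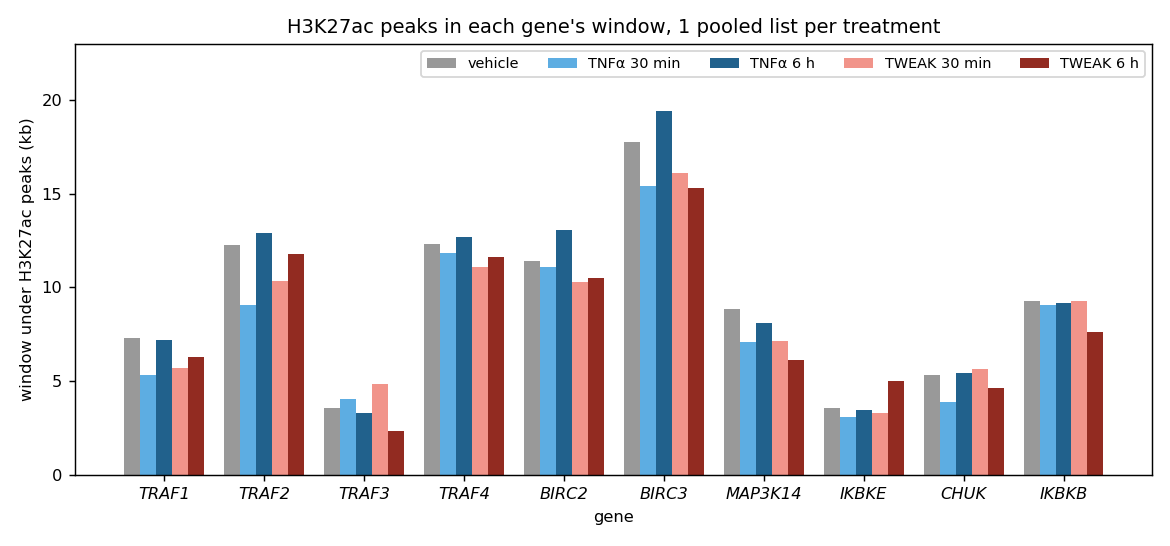
Length of each gene's window under H3K27ac peaks (y axis, kb) in the 5 treatments (bars), with 1 pooled list per bar and no error. BIRC3 had the longest covered length, from 15.3 to 19.4 kb.

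A κB match lay in the 200 bp around 15 of the 27 RELA summits (55.6%, exact 95% interval 35.3% to 74.5%; background 45.9%), and an AP-1 match around 6 (22.2%, 8.62% to 42.3%; background 17.7%). In the first 200 bases of 35116 RefSeq promoters a κB match was found in 4.26% and an AP-1 match in 5.27%. Of the 9 sites shared with RELB after 6 h of TWEAK, 8 held a κB match, 4 an AP-1 match and 5 overlapped FOSL1. Over the 1636 peaks of that RELB list outside tandem repeats, 63.1% held a κB match and 35.5% an AP-1 match. Those peaks need not carry RELA, whereas the 9 sites all do and include the TRAF3 promoter. The sets are therefore not matched. Of the 18 other sites, 7 held a κB match, 2 an AP-1 match and 10 overlapped FOSL1. The RELA fold enrichment after 30 min of TNFα had a median of 13.1 (4.49 to 16.4) at the 9 shared sites and 4.99 (3.29 to 9.34) at the 18 others.

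Among 18 further genes of the pathway, RELA was called at 12 after 30 min of TNFα (background 48.1%) and RELB at 4 after 6 h of TWEAK (TRADD, TAB2, TANK and CYLD; background 13.6%). RIPK1, the receptor-bound kinase, reached 17.8 for RELA after 30 min of TNFα, and CYLD, a deubiquitinase that opposes the pathway, reached 16.5 and had RELB at 19.2 after 6 h of TWEAK. IKBKG, the regulatory IKK subunit, had RELA at 17.0, but a near-identical copy of the gene makes its reads uncertain. By distance of the log2 fold enrichments over the 10 lists, the genes most like TRAF2 were AZIN1 (0.783), ZC3H15 (0.849) and TRIM72 (0.939). For BIRC3 and BIRC2 they were SBNO2 and STK11 (both 0.923) and CBARP (1.04). For TRAF3 they were TENM2 and WWC1 (both 0.628) and OSM (0.651), and for IKBKE LDHAL6A, TSG101 and UEVLD (each 0.429). SBNO2, STK11 and CBARP all lie on chromosome 19, TENM2 and WWC1 on chromosome 5, and LDHAL6A, TSG101 and UEVLD on chromosome 11. Genes on the same chromosome with equal distances may share peaks, so they need not be separate loci.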

How the data were processed

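ChIP-seq peak lists were used for 48 samples in 16 groups of 3, grouped by the submitters' labels. Per the submitters' processing notes, reads were mapped to hg38 with Bowtie2 2.5.0, and SAMtools 1.18, deepTools 3.3.2 and MACS2 were used. The authors called peaks against input, 1 pooled list per group. Peak names in the RELA list of 30 min of TNFα leave open whether all 3 replicates were merged. The deposited fold enrichment is the authors' ratio of ChIP over input, and the deposited −log10 q is their significance of a peak. H3K27ac peaks are broad, with values averaged over the peak. The −log10 p columns were not used.

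Autosomal, X and Y peaks were assigned to GENCODE 44 genes plus 50 kb, with an overlap of at least 1 bp, using Python 3.11.15, numpy 2.4.6, pandas 2.3.3, scipy 1.17.1 and pysam 0.24.0. A vehicle peak was shared at 1 bp of overlap. Tandem repeats were summits whose 1000 bp matched themselves at 0.4 or more at shifts of 1 to 400 bp. The functions were tested on simulated data. All 10 members were described, with their strongest peaks, all sites within 1 kb of a start, nearer neighbouring genes, the pathway list and the most similar genes. Members and lists were chosen with earlier results of these data known. No test was run, since replicates are pooled. Depth is unknown, and intervals cover counting error only and treat peaks as independent. The 12 alternatives covered the window, peak thresholds, repeats, overlap rules, and H3K27ac and motif windows.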

Additional observations from a re-analysis of the deposited data

How the results depend on the processing

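Under the 12 alternatives, 95 of 105 recomputed main values stayed within 1.5 times the count or within the interval of the share, and 10 moved. With windows of 10 kb, the genes with a new RELB peak after 6 h of TWEAK were 3 in place of 6, sites and RELA peaks of 30 min of TNFα were 17 in place of 27, and the share with a κB match was 76.5%. With a minimum fold enrichment of 5 in the RELA, RELB and FOSL1 lists, the genes with a new RELA peak after 30 min of TNFα were 5 in place of 8, sites and RELA peaks were 17 each, the share overlapping FOSL1 was 17.6% and the share with a κB match was 82.4%. Where H3K27ac had to overlap the summit itself, the share after 30 min of TNFα was 51.9%. The cause of these changes was not tested beyond the smaller number of peaks that the first 2 settings keep. Backgrounds under the alternatives are not given, so neither the changed gene counts nor the changed shares of peaks can be set against one. Of 252 recomputed highest fold enrichments, 242 were unchanged, and the 10 others belonged to BIRC2, TRAF4 and TRAF3. A further 12 had no value because the peak was lost. Of these, 6 were lost at TRAF3 without tandem repeats, 3 at TRAF4 and 1 at BIRC2 with windows of 10 kb, and 1 each at TRAF1 and TRAF3 with the minimum fold enrichment of 5. No paired analysis was possible because the result comes from no test, and no replicate could be left out, since each list pools its replicates.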
